A study of Mus musculus with 36 samples.

Results

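Sustentacular cells are the supporting cells of the olfactory epithelium, and 7 genes used to recognise them were followed here through 36 RNA-seq libraries of mouse olfactory tissue. The genes were Cbr2, Ermn, Krt8, Krt18, Sox2, Notch2 and Hes1, each taken by its symbol with the FPKM of its transcript entries summed, and they are 7 of the 24802 genes in the tables. Each had a single entry, so no summing over transcripts was needed. FPKM is the number of fragments per kilobase of transcript relative to all mapped fragments of the library, so it is already per length and can be set side by side between genes.

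The mice were C57BL/6 of both sexes with no allele or drug added. They were weaned at 3 weeks and then kept 4 to a cage until 6 months of age, either with their own sex alone or together with the opposite sex. Separated cages stood in rooms that held only mice of that sex. Pups were born in the combined cages and were killed soon after birth. The housing comparisons therefore include mating and litters, which cannot be told apart from the company of the opposite sex. The labels name the groups SF (sex-separated females), SM (sex-separated males), CF (sex-combined females) and CM (sex-combined males). The main olfactory epithelium (MOE), the vomeronasal organ (VNO) and the olfactory bulb (OB) were taken from each mouse, and 3 libraries were made for each of the 12 combinations of tissue and group. The main tests between tissues treated the libraries as independent, though tissues of the same mice entered them. Each library was a pool of several mice. The labels and the study's methods differ on the number of mice per pool. The paper's design figure gives enough mice per group for 3 separate pools of 3, while its methods text gives fewer. Whether pools of a group share mice is therefore not certain here, and the p-values measure the spread between these pools.

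Sustentacular cells span the epithelium from its surface to its base, wrap the sensory neurons, and carry enzymes that break down odorants and toxic chemicals. They are simple epithelial cells, so their cytoskeleton holds keratin 8 paired with keratin 18. Notch signalling helps to set which progeny of the epithelium become supporting cells rather than neurons: a ligand on a neighbouring cell leads to cleavage of a Notch receptor, whose freed tail joins the DNA-binding protein RBPJ and switches on repressors such as Hes1. In the nose Cbr2 (carbonyl reductase 2) and Ermn (ermin) mark mature supporting cells, but in the brain ermin is a cytoskeletal protein of myelinating oligodendrocytes. Sox2 is a transcription factor of supporting and basal cells in the epithelium and of stem cells and glia in the brain.

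In the mm9 coordinates of the files, Krt8 (NM_031170) lay at chr15:101827142-101834773 and Krt18 (NM_010664) at chr15:101858647-101862457, with 23873 bases between them. Cbr2 (NM_007621) lay at chr11:120590799-120593335 and Ermn (NM_029972) at chr2:57897526-57905163. Sox2 (NM_011443) lay at chr3:34548917-34551382, Notch2 (NM_010928) at chr3:97817461-97954290 and Hes1 (NM_008235) at chr16:30065443-30067882. The Sox2 locus is inside that of the long noncoding RNA Sox2ot, so the split of reads between these overlapping genes is uncertain. None of the other 6 loci overlapped another listed gene. The annotation also holds 1 pseudogene of Krt8, Krt8-ps, and reads of a near-identical copy could be shared with it.

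The stretches just before the transcription start are shown for the keratin pair, whose levels were nearly 0 in OB, and for Cbr2 and Ermn, whose order differed most between tissues. They are 250 bases each, taken from RefSeq on GRCm38.p6, a later build than the mm9 of the expression files, and are written 5′ to 3′ on the gene's own strand. The positions are chr15:102004343-102004592 on the minus strand for Krt8, chr15:102027966-102028215 on the plus strand for Krt18, chr11:120732022-120732271 on the minus strand for Cbr2 and chr2:58052865-58053114 on the minus strand for Ermn. Capitals mark matches, on either strand, to the RBPJ letters TGGGAA, the Hes letters CACNAG (N is any base) and the Sox letters ACAAAG and ACAATG.
Krt8: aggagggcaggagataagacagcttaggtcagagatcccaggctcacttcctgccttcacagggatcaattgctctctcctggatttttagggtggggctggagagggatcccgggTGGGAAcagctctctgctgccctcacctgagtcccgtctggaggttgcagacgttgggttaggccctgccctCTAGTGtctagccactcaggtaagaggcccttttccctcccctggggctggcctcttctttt
Krt18: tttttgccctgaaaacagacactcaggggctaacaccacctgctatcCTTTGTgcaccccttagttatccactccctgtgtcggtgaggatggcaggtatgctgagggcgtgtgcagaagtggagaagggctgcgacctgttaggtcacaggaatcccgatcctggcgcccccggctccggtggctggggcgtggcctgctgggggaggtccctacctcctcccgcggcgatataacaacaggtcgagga
Cbr2: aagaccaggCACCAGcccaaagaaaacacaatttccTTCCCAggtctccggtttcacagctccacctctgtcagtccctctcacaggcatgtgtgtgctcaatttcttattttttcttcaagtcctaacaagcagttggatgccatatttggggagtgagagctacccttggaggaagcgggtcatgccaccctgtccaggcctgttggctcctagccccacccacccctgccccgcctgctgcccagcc
Ermn: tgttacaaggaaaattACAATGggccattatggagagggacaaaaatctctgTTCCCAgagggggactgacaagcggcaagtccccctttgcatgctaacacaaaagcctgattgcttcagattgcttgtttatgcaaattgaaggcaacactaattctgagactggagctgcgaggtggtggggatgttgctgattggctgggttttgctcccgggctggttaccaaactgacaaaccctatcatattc
The Krt8 stretch holds the RBPJ letters and, nearer the start, the Hes letters. That of Krt18 holds a Sox match alone. In Cbr2 the Hes letters and the RBPJ letters lie close together at the far end, and in Ermn a Sox match and the RBPJ letters do so. These letters are common: of 32851 RefSeq windows of 300 bases around a start (250 before and 50 after), 25.6% hold TGGGAA, 42.5% CACNAG, 18.7% ACAAAG and 12.6% ACAATG, so a match is only a description of the sequence. Windows were given for 6 of the 7 genes. The windows of Notch2 and Sox2 were rich in CG, with 41 and 27 CpG dinucleotides and a GC content of 73.0% and 66.3%. Cbr2, Ermn and Krt8 had 4, 5 and 6 CpG, near the median of 7 over all windows, and Krt18 had 17.

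The libraries held an estimated 3016524 to 6779893 fragments in genes. Their labels fitted: Xist, the RNA of the inactive X, was between 11.8 and 23.2 FPKM in female libraries and at most 0.0793 in male ones, and the Y-linked Ddx3y was at least 6.56 in male libraries and at most 0.0209 in female ones. Omp and Cnga2, genes of olfactory sensory neurons, averaged 983 and 214 FPKM in MOE and 35.1 and 0.602 in OB, and Trpc2, the channel of vomeronasal neurons, averaged 43.0 in VNO and 0.938 in MOE. One MOE library stood apart. In the third CM pool of MOE the median gene was at 64.0% of its median over the 12 MOE libraries, against 88.2% to 110% in the other 11. It held the MOE minimum of all 7 genes, and without it the lowest MOE values were 667 FPKM for Cbr2, 18.1 for Ermn, 40.1 for Krt8, 136 for Krt18, 17.4 for Sox2, 5.28 for Notch2 and 12.9 for Hes1. In the paper's alignment summary this pool had the most input read pairs of the MOE libraries. It also had their lowest shares of aligned reads and of concordant pairs, and their shortest mean insert. The part of these alignment traits in its low values was not tested. The tissues were sequenced with the same set of barcodes, so tissue and sequencing run cannot be told apart. The RNA integrity numbers in the paper, a measure of how intact the RNA is, did not overlap between tissues either. They were lowest in VNO and highest in OB. Within VNO they were mostly higher in separated than in combined mice. Their part in the levels was not tested.

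Across tissues the 7 genes fell into different patterns rather than following each other. Cbr2 and the keratins were abundant in both nasal epithelia and almost absent from OB. Ermn was high in MOE, low in OB and lowest in VNO. Notch2 and Sox2 were highest in VNO. Hes1 was low in OB, and its MOE and VNO means differed by less than their spread. Because whole tissues were measured, fewer supporting cells and less RNA per cell cannot be told apart.

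Cbr2, the most abundant of the 7, ranged from 539 to 1018 FPKM in MOE with a median of 833. In VNO it ranged from 327 to 432 with a median of 394, and in OB from 0.665 to 2.23 with a median of 0.923. No library of a tissue reached the range of another. The means were 814 ± 136 (SD, n = 12) in MOE, 388 ± 34.2 (n = 12) in VNO and 1.09 ± 0.433 (n = 12) in OB. Cbr2 was thus 750-fold higher in MOE than in OB (95% interval 653 to 866 from the counting error of the OB fragments alone) and 358-fold higher in VNO (311 to 413). Between MOE and VNO the fitted difference was 1.05 ± 0.10 (SE) on the log2(FPKM + 0.5) scale, with a limma adjusted p of 7.1e-11.

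Krt8 and Krt18 pair in the same filament, and both were close to 0 in OB. Krt8 ranged from 29.2 to 59.6 FPKM in MOE (median 45.0) and from 34.4 to 52.6 in VNO (median 42.0), so the ranges lay almost on top of each other. Krt18 ranged from 95.5 to 190 in MOE (median 147) and from 86.2 to 114 in VNO (median 102). In OB, Krt8 was listed at 0 in 7 of 12 libraries, and the other 5 held 0.0245, 0.0267, 0.0271, 0.0515 and 0.0803 FPKM. Krt18 was listed at 0 in 1 OB library and reached 0.19995 in the highest. These OB values rest on very few fragments, an estimated 7.99 for Krt8 and 26.98 for Krt18 over all 12 libraries, and 0 and 1 library were above the 3 fragments taken as the floor. Against OB, Krt8 was 2659-fold higher in MOE (counting interval 1349 to 6161) and 2497-fold higher in VNO (1267 to 5786). Krt18 was 1893-fold higher in MOE (1301 to 2873) and 1302-fold higher in VNO (895 to 1977).

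Ermn did not follow Cbr2. It ranged from 12.7 to 26.8 FPKM in MOE (median 20.3), from 0.319 to 0.742 in VNO (median 0.509) and from 3.33 to 5.34 in OB (median 4.51). The 3 ranges were separate, and VNO, with at most 47.5 estimated fragments per library, was the lowest. The mean in MOE was 41.3-fold that in VNO, between 32.7-fold in SM and 61.9-fold in SF. The fitted differences were 4.39 ± 0.09 (SE, log2) between MOE and VNO and 2.28 ± 0.09 (SE, log2) between OB and VNO, with limma adjusted p of 7.8e-27 and 3.3e-20. In OB the myelin genes of oligodendrocytes were also present. Mbp, which encodes a structural protein of myelin, averaged 151 FPKM there, against 3.50 in MOE and 4.93 in VNO. The summed level of the 7 oligodendrocyte genes was 243 to 336 FPKM in OB, 13.4 to 27.2 in MOE and 14.8 to 19.2 in VNO, and Mog was listed at 0 in all 12 MOE libraries. Its part in the OB level of Ermn was not tested.

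Sox2 ranged from 13.99 to 23.6 FPKM in MOE (median 19.8), from 22.1 to 35.9 in VNO (median 27.8) and from 10.9 to 13.98 in OB (median 13.0). Its mean differed least across tissues of the 7, by 2.15-fold between VNO and OB. The MOE and VNO ranges overlapped, and the lowest MOE library, the third CM pool, all but met the highest OB library. Notch2, a receptor of the pathway, ranged from 4.32 to 8.30 in MOE (median 5.83), from 8.69 to 12.2 in VNO (median 10.8) and from 3.52 to 4.79 in OB (median 3.90). Every VNO library lay above every library of MOE and OB. The fitted VNO excess over MOE was 0.79 ± 0.06 (SE, log2) for Notch2 and 0.45 ± 0.07 (SE, log2) for Sox2, with limma adjusted p of 2.1e-12 and 8.9e-07. Hes1, a repressor switched on by Notch, ranged from 8.53 to 21.3 in MOE (median 16.5), from 10.5 to 17.2 in VNO (median 15.3) and from 1.76 to 3.54 in OB (median 2.53). Its MOE and VNO means, 16.1 ± 3.46 and 15.01 ± 1.80 (SD, n = 12 each), differed by 0.08 on the log2 scale (95% interval -0.14 to 0.30, limma adjusted p = 0.50).

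**Figure D1:**
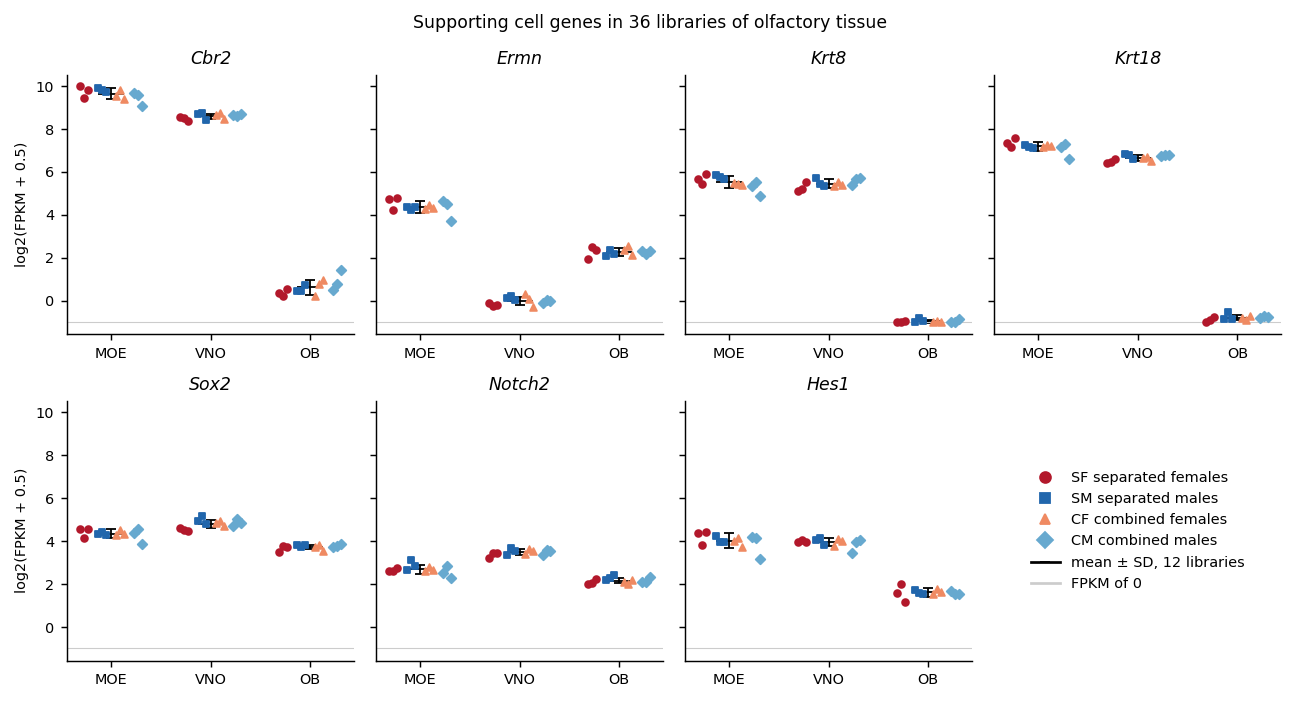
Level of the 7 genes in 36 libraries as log2(FPKM + 0.5), 1 panel per gene, with MOE, VNO and OB on the horizontal axis. Points are libraries by group (SF, SM, CF, CM), the black bar is the mean ± SD over the 12 libraries of a tissue, and the grey line marks an FPKM of 0. Krt8 and Krt18 sit on or just above the grey line in OB, Ermn is lowest in VNO, and the lowest MOE point of every gene is a CM library.

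By the fit of all 36 libraries, 5 of the 7 genes differed between MOE and VNO (3 higher and 2 lower in MOE), and all 7 differed between MOE and OB (all higher in MOE) and between VNO and OB (6 higher and Ermn lower in VNO). Such calls were the rule, not the exception: of 16027 genes tested, 82.6%, 84.9% and 84.1% passed in the 3 comparisons. Of the calls between MOE and VNO 58.1% were higher in MOE as deposited, 50.1% under quantile normalization and 45.9% under upper quartile scaling, and of those between VNO and OB 45.5%, 47.4% and 59.0% were higher in VNO. Counting genes whose libraries do not overlap between tissues gave 3 of 7 members for MOE and VNO (Cbr2, Ermn and Notch2), 6 for MOE and OB (all but Notch2, which overlapped through the third CM pool) and 7 for VNO and OB, against 36.5%, 51.9% and 61.3% of all genes tested. The median member difference was 0.08 on the log2 scale for MOE minus VNO, 2.41 for MOE minus OB and 2.34 for VNO minus OB, where the median over all genes tested was 0.134, 0.090 and -0.067.

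The MOE and VNO comparison depended on how the libraries were scaled. FPKM divides by the mapped fragments of a library. The 10 most abundant genes took 32.3% to 45.3% of summed FPKM in MOE and 42.4% to 63.6% in VNO. Summed FPKM is per length, and the share of mapped fragments that these genes took was not computed. Scaling to the upper quartile moved the median of all genes from 0.134 to -0.054, and quantile normalization moved it to 0. Ermn, Notch2 and Sox2 kept their direction and passed the test under both. Cbr2 fell from 1.05 to 0.09 under quantile normalization (limma adjusted p = 0.35), and Krt18 from 0.53 to 0.005 (adjusted p = 0.94), though both passed under upper quartile scaling. Krt8 and Hes1 did not pass with the values as deposited (Krt8 0.08, adjusted p = 0.29). They were lower in MOE under upper quartile scaling, by 0.19 and 0.18 (adjusted p = 0.00041 and 0.028), and under quantile normalization, by 0.44 and 0.31 (adjusted p = 1.9e-07 and 0.00024).

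**Figure D2:**
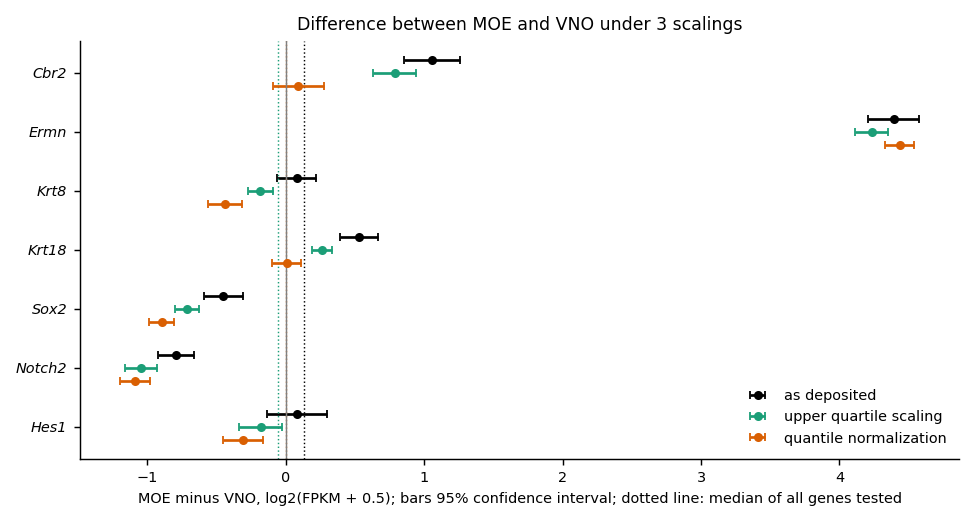
Difference between MOE and VNO in log2(FPKM + 0.5) for each gene, with 95% confidence intervals, for values as deposited and under 2 other scalings. Dotted lines give the median of all genes tested under each scaling. Ermn stays above 4 and Notch2 and Sox2 stay below 0, while Krt8 and Hes1 cross from just above 0 to below it.

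Ratios of 2 members within a library are not changed by a single factor per library, such as upper quartile scaling, though quantile normalization, which brought the Cbr2 and Krt18 differences to 0.09 and 0.005, can change them. With values as deposited, 8 could be compared between tissues by permutation tests, both sides counted, with 100000 resamples. The Krt8 to Krt18 ratio was 0.307 (median, 0.274 to 0.385) in MOE and 0.426 (0.382 to 0.472) in VNO, and these ranges met at their edges. The Cbr2 to Krt18 ratio was 5.67 (4.46 to 6.45) in MOE and 3.82 (3.32 to 4.36) in VNO, with no overlap. Thus VNO held more keratin 8 message per keratin 18 message, by 0.45 ± 0.06 (SE, log2), and less Cbr2 per keratin 18, by 0.52 ± 0.06 (SE, log2). The Ermn to Cbr2 ratio spanned the tissues most widely, its medians being 0.0255 (MOE), 0.00125 (VNO) and 4.37 (OB). Hes1 to Notch2 ran from 2.62 in MOE through 1.40 in VNO to 0.643 in OB, again with no overlap. All 8 permutation tests gave p = 2e-05, the smallest the resamples can give, and 2e-05 after Benjamini-Hochberg adjustment over the 8.

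**Figure D3:**
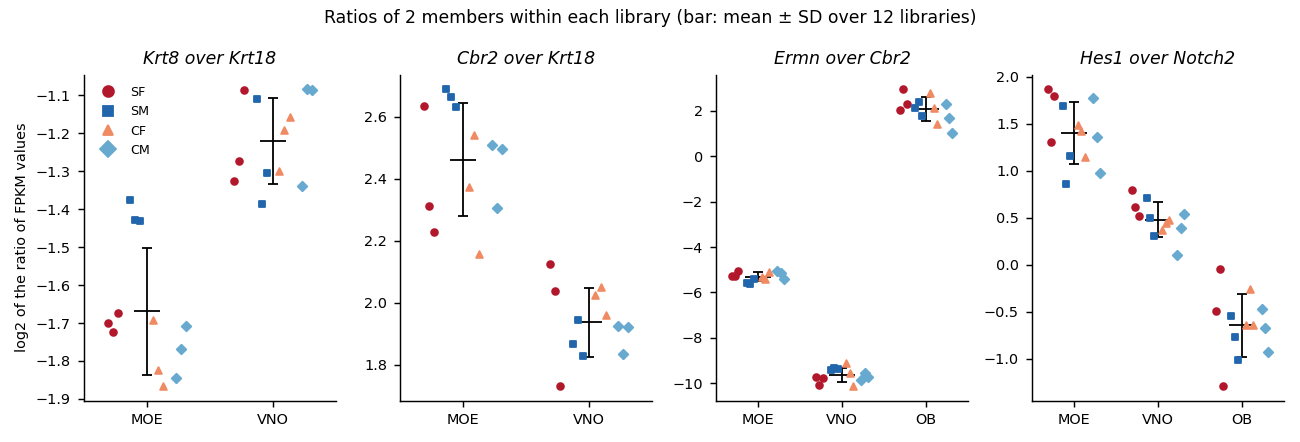
Log2 ratio of the FPKM of 2 genes within each library by tissue, with points by group and bars for the mean ± SD over 12 libraries. The vertical scale differs between panels, and the ratios with a keratin are shown for MOE and VNO alone since both keratins were listed at 0 in OB libraries. The 3 SM libraries of MOE stand above the other MOE libraries for Krt8 over Krt18.

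Within MOE the keratin ratio was also separate in the sex-separated males. It was 0.371, 0.372 and 0.385 in the SM libraries and 0.274 to 0.313 in the 9 others, with no overlap. The SM libraries held 50.6, 53.2 and 57.9 FPKM of Krt8 and 136, 143 and 150 of Krt18. Their Krt8 was thus above the MOE median of 45.0 in each, while their Krt18 lay around its median of 147. In VNO the SM ratios, 0.382 to 0.463, lay within the range of the other groups. The SM libraries were also at the edge of the MOE range for other ratios. For Cbr2 over Krt18 they held 6.20 to 6.45, against 4.46 to 6.21 in the 9 others. For Ermn over Cbr2 they held 0.0200 to 0.0237, against 0.0236 to 0.0302. For Hes1 over Notch2 the ranges overlapped widely. Over single genes, SF and SM did not overlap for 14.2% in MOE, but that split leaves out the combined groups. The share for SM against the 9 others was not computed, over single genes or over ratios. The keratin split was seen in the values and was not tested.

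The question of the study's design was whether living with the opposite sex, or being female or male, changes gene expression in these tissues. For the 7 genes no difference passed in MOE, VNO or OB. This held for females against males in either housing, for separated against combined mice and for the difference of the sex effects between housings (limma, adjusted p under 0.05). Under 1 alternative, weighting libraries by their quality, Ermn passed in MOE for SF minus SM (0.40) and Ermn and Hes1 for the difference of the sex effects (0.63 and 0.57), when the genes called over all rose from 13 to 1778 and from 4 to 2416. All 7 were tested in MOE and VNO and 5 in OB, where both keratins were under the minimum mean of 0.5 FPKM. Calls were rare over all genes too. In MOE 0.0944%, 0.0436%, 0.029% and 0.102% of 13771 genes were called for SF minus SM, CF minus CM, the difference of the sex effects and separated minus combined. In VNO the shares were 0.0721%, 0.0433%, 0% and 0% of 13864 genes, and in OB 0.039%, 0.0468%, 0.00781% and 0.00781% of 12808. With no call at all in VNO for the last pair of comparisons, 729 and 1050 genes there had an unadjusted p under 0.05.

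The intervals show what could have been missed. In MOE the 95% intervals of the female to male fold reached from 0.64 to 1.42 for Cbr2 and from 0.69 to 1.28 for Krt8 in separated mice. They were narrower in VNO, 0.74 to 1.09 for Cbr2 and 0.71 to 1.08 for Krt8. Without the third CM pool the standard error of the MOE sex difference of Cbr2 in separated mice fell from 0.27 to 0.18 on the log2 scale, and still no member was called. The MOE difference of CF minus CM was between 0.06 and 0.20 for the 7 genes with this pool and between -0.23 and -0.004 without it, so its direction turned for each of them.

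Of the members, Sox2 in VNO came nearest to a sex difference. The SF libraries held 22.1, 22.4 and 24.3 FPKM and the SM libraries 27.3, 30.3 and 35.9, while CF held 25.9, 28.2 and 29.9 and CM 25.6, 28.6 and 32.2. As deposited, all 3 separated females were therefore below all 3 separated males, whereas the combined sexes overlapped. With each library set against its median gene, the highest SF and the lowest SM value met, both at 99.2% of the tissue median. The median over all genes for SF minus SM in VNO was -0.078. The Sox2 difference was -0.43 ± 0.11 (SE, log2) in separated mice (unadjusted p = 0.0025, limma adjusted p = 0.33). It was -0.04 ± 0.11 in combined mice. The difference between these effects was -0.39 ± 0.16 (unadjusted p = 0.029, limma adjusted p = 0.89). Ermn in VNO was also lower in SF, at 0.335, 0.372 and 0.443 FPKM against 0.526, 0.609 and 0.656 in SM (log2 difference -0.31, limma adjusted p = 0.59). Krt18 was lower in CF, at 91.2, 99.4 and 104 against 105, 109 and 111 in CM (log2 difference -0.14), and neither difference passed. In these 3 cases the groups did not overlap with values as deposited. Such separations were frequent in VNO, where SF lay wholly below SM for 12.9% of genes and CF wholly below CM for 3.25%. In either direction the shares were 14.5% for SF and SM (2 of 7 members), 8.71% for CF and CM (1 of 7) and 0.317% for separated and combined (0 of 7). Elsewhere 0 members separated, in MOE beside 14.2%, 4.13% and 0.269% of genes and in OB beside 8.59%, 10.2% and 0.0156% for the same 3 comparisons.

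Krt8 in MOE was the only member with an unadjusted p under 0.05 for housing. Separated mice held 43.2, 50.5 and 59.6 FPKM in females and 50.6, 53.2 and 57.9 in males. Combined mice held 41.0, 43.3 and 44.0 in females and 29.2, 40.1 and 46.0 in males. The ranges overlapped, since the lowest SF library was below 2 CF libraries and the highest CM library. The difference was 0.37 ± 0.15 (SE, log2; unadjusted p = 0.022, limma adjusted p = 0.79), and 0.28 ± 0.09 without the third CM pool (unadjusted p = 0.0096, limma adjusted p = 0.99997). The median over all genes in this comparison was 0.118 as deposited.

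**Figure D4:**
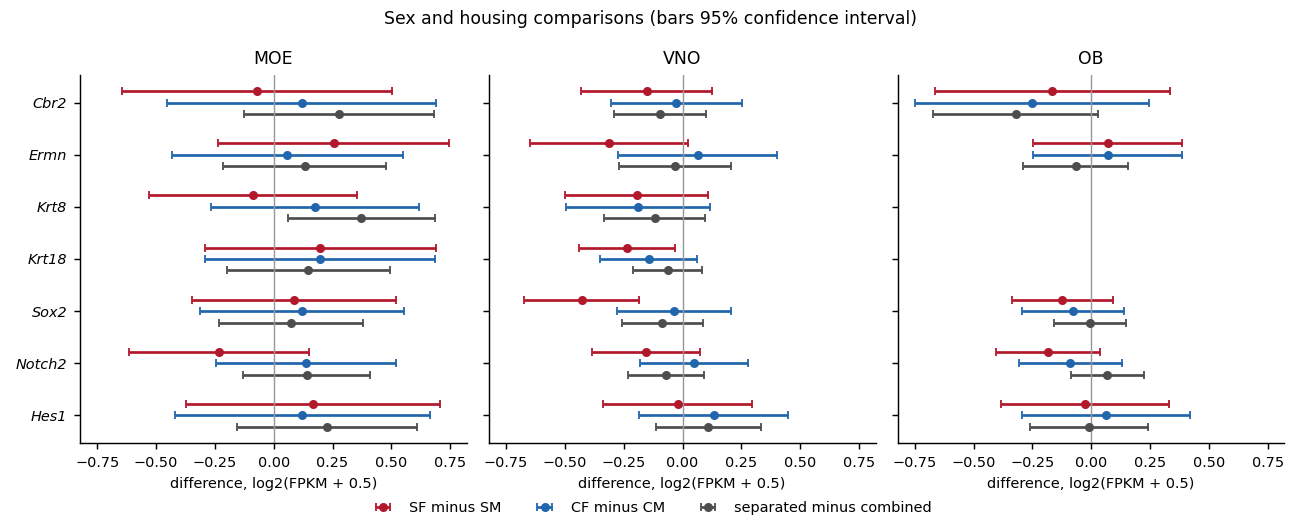
Differences in log2(FPKM + 0.5) with 95% confidence intervals for SF minus SM, CF minus CM and separated minus combined, in MOE, VNO and OB. The keratins have no value in OB. Most intervals cross 0, with Krt8 housing in MOE and the SF minus SM differences of Sox2 and Krt18 in VNO as the exceptions, and none of these passed after adjustment over all genes.

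Among libraries of 1 tissue the members varied together in MOE with values as deposited, and much less so after rescaling. All 21 pairs of members had a positive Pearson r over the 12 MOE libraries, with a median of 0.796, and 14 of the pairs had a permutation p under 0.05 after adjustment over the 52 pairs of 3 tissues. Spearman's rho passed as well for 7 of these. Without the 2 libraries farthest from the median of the first gene, the median r was 0.428. Without the third CM pool it was 0.488 and 1 pair passed, and after upper quartile scaling it was 0.048 and 1 pair passed. In that pool all 7 members were at their MOE minimum, at 51.8% to 74.2% of their median, beside 64.0% for the median gene. The genes whose log2 values ran most like Cbr2 over the 12 libraries were Ing1, Arhgap40 and Ube2m (r = 0.95, 0.95 and 0.95). Those most like Krt18 were Sem1, Ndufa3 and Atp5mpl (r = 0.98, 0.98 and 0.98). They were picked as the highest out of 13770 genes. Without the third CM pool these 6 values were 0.90 to 0.92, and values after upper quartile scaling were not computed. By r over the 12 libraries as deposited, the other members ranked from 386 (Hes1) to 9920 (Notch2) for Cbr2 and from 541 (Hes1) to 10214 (Notch2) for Krt18. Without the third CM pool the nearest member to Cbr2 was still Hes1, at rank 618, and that to Krt18 was Ermn, at rank 286. The other 5 members were not used as the reference.

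In VNO the median r was 0.427 and 5 of 21 pairs passed. The closest was Krt8 with Krt18 (r = 0.84, rho = 0.86, adjusted permutation p = 0.0054 and 0.010), which stayed at 0.76 without the 2 farthest libraries and at 0.74 after upper quartile scaling, when it no longer passed. In MOE this keratin pair had an r of 0.80 (rho = 0.45, adjusted permutation p = 0.022 and 0.29). There r was 0.09 without the 2 farthest libraries and 0.22 after upper quartile scaling. With values taken as deviations from group means, r of this pair was 0.96 in MOE and 0.80 in VNO. In OB, where 10 pairs could be formed, the median was 0.155 and none passed, the lowest r being that of Hes1 with Notch2 (r = -0.47, rho = -0.45, adjusted permutation p = 0.22 and 0.29).

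**Figure D5:**
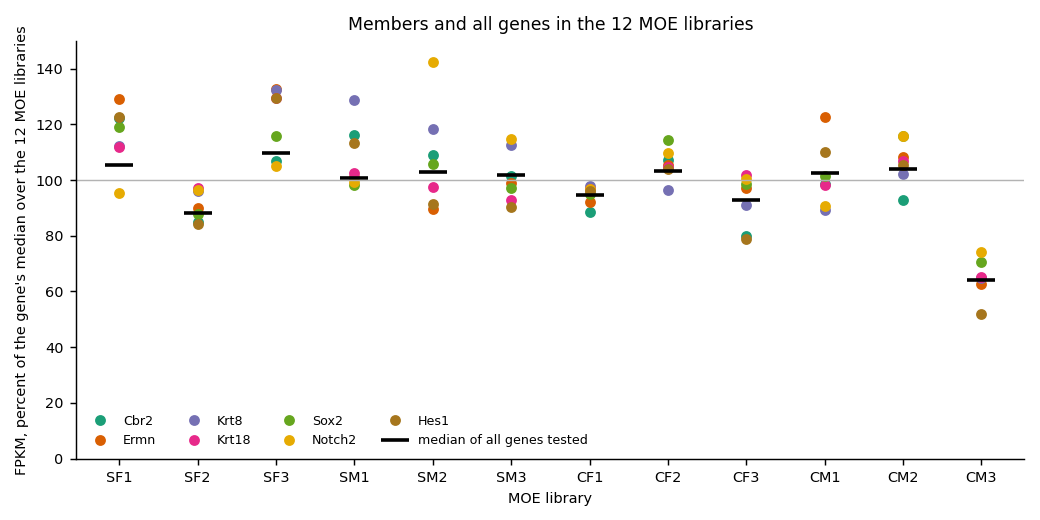
FPKM of each member in the 12 MOE libraries as a percent of its median over them, with the median of all genes tested as black bars. In CM3 all members lie between 51.8% and 74.2% around the all-gene bar at 64.0%, and in the other libraries they scatter on both sides of it.

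Other genes of supporting cells shared the MOE and OB contrast and not always the VNO level. Of 11 such genes all passed between MOE and VNO, 8 higher and 3 lower in MOE, and 9 of 11 were higher in MOE than in OB with none lower. Over all genes tested 48% were higher and 34.6% lower in MOE than in VNO, and 46.6% were higher in MOE than in OB. Between MOE and VNO the counts were 7 higher and 4 lower under quantile normalization, and 7 and 3 under upper quartile scaling. Cyp2a5 and Ugt2a1, which metabolise odorants and drugs, averaged 2279 and 1264 FPKM in MOE. Their means were 96.4 and 46.9 FPKM in VNO, and 0.294 and 0.114 in the bulb. Their MOE to VNO differences of 4.58 and 4.78 (log2) were well over that of Cbr2. That of Ermn, 4.39, is not directly comparable, since the 0.5 added to FPKM shrinks it at a VNO mean of 0.502. Under the alternative settings it ran from 3.84 to 5.12, and its ratio of means was 41.3-fold. One of the 3 lower genes, Ugt2a2, was named after its values were seen: it was listed at 0 in all MOE libraries beside 60.6 FPKM in VNO. A listed 0 can be a failed estimate, so its call is not read as a low level. Among 9 other epithelial keratins none was higher in MOE than in VNO and 6 were lower, while all 9 were higher in either epithelium than in the bulb. Under both other scalings 8 of the 9 were lower in MOE than in VNO, Krt23 among them, and none was higher. Krt23 averaged 26.5, 25.7 and 0.025 FPKM and Krt19 17.4, 39.2 and 0.122 in MOE, VNO and OB.

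The rest of the Notch pathway was measured from ligand to target. Of 30 genes, 26 were tested, of which 9 were higher and 15 lower in MOE than in VNO, 12 higher and 10 lower in MOE than in OB, and 14 higher and 9 lower in VNO than in OB. These shares of genes called stand beside 82.6%, 84.9% and 84.1% of all genes. Under quantile normalization the counts were 7 and 16, 11 and 10, and 14 and 10, and under upper quartile scaling 6 and 16, 14 and 8, and 16 and 6. The ligands Jag1 and Jag2 averaged 7.08 and 7.09 FPKM in MOE and 5.92 and 5.91 in VNO. This MOE excess of 0.23 for each (log2) passed as deposited and turned to between -0.02 and -0.01, not passing, under quantile normalization and upper quartile scaling. The receptors Notch1 and Notch3 averaged 1.30 and 1.30 in MOE and 3.05 and 2.68 in VNO. Like Notch2, both were lower in MOE, by 0.99 and 0.82 on the log2 scale. Among processing enzymes and nuclear partners, 9 of 11 were lower in MOE than in VNO and 1 was higher, Psen2, a catalytic subunit of the receptor-cleaving protease, at 34.1, 11.1 and 3.49 FPKM in MOE, VNO and OB. These counts were the same under both other scalings. The lower genes include Ncstn, named after its values were seen, which was listed at 0 in 10 of 12 MOE libraries and in all OB libraries but reached 10.06 FPKM in the third SM pool of MOE. It is a subunit that most cells use, so these listed 0s need not mean low expression, and its call is not read as one. Of 7 fringes and inhibitors, 3 were higher and 3 lower in MOE than in VNO, against 2 and 4 under upper quartile scaling. All 3 tested targets other than Hes1 were higher in MOE than in VNO under each scaling, with Hey1 at 19.9, 12.1 and 6.88 FPKM and Hey2 at 1.56, 0.771 and 5.25 in MOE, VNO and OB. So Hey1 fell from MOE to OB as Hes1 did, and Hey2 was highest in OB.

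Of the other Sox genes, 4 of 5 were tested and 3 of these were lower in MOE than in VNO, as Sox2 was. Sox21 averaged 1.81, 3.08 and 0.939 FPKM in MOE, VNO and OB, and Sox10, a gene of glia including olfactory ensheathing cells, 2.18, 3.71 and 4.03. No gene of the Notch, keratin, Sox or supporting cell lists was called in any sex or housing comparison.

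Cells other than supporting cells contribute to these values, and markers of several differed between MOE and VNO: 2 of 3 horizontal basal cell, 3 of 4 gland and 3 of 3 endothelial genes were lower in MOE, and 4 of 4 microvillar, 5 of 6 glial and 2 of 2 tested globose basal cell and immature neuron genes were higher, beside 34.6% lower and 48% higher over all genes. The 3 horizontal basal cell genes, 2 of them keratins, summed to 15.1 to 22.8 FPKM in MOE, 13.4 to 29.8 in VNO and at most 0.283 in OB. The 4 genes of nasal glands summed to 35.3 to 52.4, 45.8 to 72.8 and 0.799 to 1.38, and the 4 genes of ciliated respiratory cells to 36.2 to 66.8, 31.9 to 54.5 and 1.62 to 2.39. The 6 astrocyte and ensheathing glia genes summed to 84.7 to 180, 56.4 to 68.0 and 394 to 542. The 4 microvillar genes summed to 16.3 to 31.5, 4.56 to 7.79 and 0.128 to 0.348, and the 3 endothelial genes to 2.77 to 5.22, 7.91 to 10.2 and 3.70 to 5.47. Genes of red blood cells varied most between libraries, the 3 of them summing to 27.8 to 407, 178 to 1090 and 2.04 to 203. Their part in the levels of Krt8, Krt18, Sox2, Hes1 and Notch2 was not tested. In OB Cbr2 was highest in the third CM library, at 2.23 FPKM, and so was the sum of the other supporting cell genes, at 7.10 against 3.98 in the lowest library. Most of that sum was Pax6, named after its values were seen, a transcription factor that neurons of the bulb also express, at a mean of 4.47 FPKM in OB.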

How the data were processed

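The 36 libraries were rRNA-depleted stranded total RNA sequenced as read pairs. The authors deposited 1 table per library of FPKM values with their confidence bounds, made with TopHat2 2.1.0 and Cufflinks 2.2.1.0 on mm9 per the submitters' processing notes; their options are not given in the sources used here. Transcript entries were matched to symbols through the RefSeq gene table and, where that held none, GENCODE vM21 (99.7% matched) and FPKM summed per gene. Entries without a symbol kept their own identifier, and genes with an entry that Cufflinks did not mark as OK were left out of that tissue (6 in MOE, 2 each in VNO and OB). Fragments per gene were estimated as the square of FPKM over its standard error, from the upper bound, and 3 fragments were taken as the floor; intervals from fragments cover counting error only. The libraries held 3016524 to 5902159 estimated fragments in MOE, 3373400 to 6779893 in VNO and 3592966 to 6437263 in OB, and the smallest were the least precise.

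Values were tested as log2(FPKM + 0.5) with limma 3.58.1 (R 4.3.3; trended eBayes), once for each tissue (12 libraries, 4 groups, genes averaging at least 0.5 FPKM) and once for all tissues (36 libraries, 12 groups, genes reaching that mean in at least 1 tissue), with Benjamini-Hochberg adjustment over all genes and a threshold of 0.05. Fold changes on this scale understate low genes. The fit was tested on simulated data for SF minus SM in MOE, with noise drawn independently for each gene. Those data held no factor shared by the genes of a library, so the test does not cover such a factor. Correlations and ratios used permutation tests in Python 3.11.15 with scipy 1.17.1. Alternatives were other pseudocounts, no filter, quantile and upper quartile scaling, library weights, the replicate number as a block, only the 6 libraries compared, and leaving out each library.

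The members and lists were chosen with earlier results of these data known. The genes named were the 7 members, checks of the labels, the 2 most abundant genes of a list in MOE (in OB for glia, in VNO for vomeronasal neurons), list genes called in a sex or housing comparison, and the 3 genes most correlated with Cbr2 and with Krt18. A gene that this rule names is not reported here. Groups follow the labels, and all libraries entered the fits except where a value is given without a named pool.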

Additional observations from a re-analysis of the deposited data

How the results depend on the processing

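Over all settings 896 of 903 tissue differences of members kept their direction and side of the threshold, as did all 200 alternative ratio values. Of 1482 sex and housing differences 1479 kept their side of the threshold, and 111 changed sign without being called. Between MOE and VNO, Hes1 and Krt8 turned to -0.31 and -0.44 under quantile normalization and to -0.18 and -0.19 under upper quartile scaling, and the cause was not tested. Cbr2 and Krt18 were no longer called under quantile normalization, and Hes1 was called under library weights (0.17, limma adjusted p = 0.047). Leaving out any library left 5, 7 and 7 members called between tissues and 0 in every sex and housing comparison, and moved the ratios by little: Krt8 over Krt18 -0.48 to -0.43, Cbr2 over Krt18 0.50 to 0.55, Ermn over Cbr2 4.29 to 4.38, -7.48 to -7.30 and -11.8 to -11.6, and Hes1 over Notch2 0.88 to 0.97, 1.99 to 2.101 and 1.07 to 1.18. Other ratios with an OB keratin could not be given, since the keratins are listed at 0 there. Whether replicate numbers pair the samples is not known. Same-numbered libraries of 1 group in 2 tissues had correlations of deviations between -0.262 and 0.282, above 0.1 in 7 of 36 pairs. Those of different groups in 1 tissue were above 0.1 in 4 of 18 pairs in MOE, 3 of 18 in OB and 9 of 18 in VNO. Libraries of unlike number were not compared, so these values cannot decide it. With replicate numbers as a block, 5, 7 and 7 members were called between tissues and 0 in every sex and housing comparison. The block gave 18, 7, 6 and 16 calls over all genes in MOE.

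With library weights 1 member was called for MOE SF minus SM (Ermn 0.40, limma adjusted p = 0.014) and 2 for the MOE difference of the sex effects (Ermn 0.63 and Hes1 0.57, adjusted p = 0.014 and 0.035). These weights moved the number of all genes called in MOE from 13, 6, 4 and 14 (SF minus SM, CF minus CM, the difference of the sex effects, and housing) to 1778, 12, 2416 and 46, and in OB from 5, 6, 1 and 1 to 1403, 681, 409 and 118; the cause was not tested. With only the 6 libraries compared, the MOE sex counts became 20 and 17, the OB ones 8 and 12, and VNO CF minus CM 11 rather than 6. Without the filter, MOE SF minus SM gave 8, MOE housing 7, the VNO difference of the sex effects and VNO housing 1 each, and OB housing 0. Quantile and upper quartile scaling gave 2 and 2 for the MOE difference of the sex effects and 24 and 25 for MOE housing. The split of calls higher and lower moved with them: for MOE SF minus SM 30.8% were higher as deposited, 53.3% with quantile and 46.2% with upper quartile scaling, for MOE CF minus CM 16.7%, 28.6% and 28.6%, for the MOE difference of the sex effects 1 of 4, 2 of 2 and 2 of 2, and for OB CF minus CM 16.7%, 37.5% and 37.5%. With 1 library left out the counts ran from 11 to 18, 6 to 9, 3 to 11 and 12 to 24 in MOE, 5 to 12, 6 to 8, 0 to 3 and 0 to 6 in VNO, and 5 to 7, 6 to 9, 1 to 4 and 1 to 3 in OB. The highest MOE values came without the third SF pool (11) and the first SF pool (24), those of VNO without the second CF pool (3 and 6), those of OB without the first SM pool (4 and 3), and the lowest VNO value without the first SM pool (5).

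Correlated pairs numbered 14 in MOE, 5 in VNO and 0 in OB. Upper quartile scaling gave 1 in MOE and 0 in VNO, and deviations from group means gave 1 in VNO and 2 in OB. With 1 library left out there were 1 to 15 in MOE (1 without the third CM pool), 2 to 6 in VNO (2 without the second SF pool) and 0 to 1 in OB. Depth limits the OB keratins, Cbr2 in OB (8.0 to 36.2 estimated fragments per library) and Ermn in VNO (at most 47.5).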
